A study of Homo sapiens with 36 samples.

Results

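The 9 genes described here carry out the feedback and growth-arrest part of the p53 response: MDM2, PPM1D and CCNG1 (feedback on p53), CDKN1A, BTG2 and PLK3 (cell-cycle arrest), and SESN1, GDF15 and TP53INP1 (stress signalling). They were chosen by symbol, and all 9 were found in each of 3 gene tables that held 16431, 17035 and 16459 genes, or 18078 different genes in all. Expression was measured by RNA-seq in 36 libraries from NT2/D1-A4 and 2102EP-C1, which are cisplatin-resistant clones derived from human testicular germ cell tumor (TGCT) lines of the embryonal carcinoma type. Each experiment had 4 arms of 3 libraries. The first and second experiments compared control cells, cells given 0.5 µM cisplatin for 6 h, cells given 1 µM GSK-J4 for 3 days, and cells given GSK-J4 followed by cisplatin, in NT2/D1-A4 and in 2102EP-C1 respectively. GSK-J4 is an inhibitor of KDM6A and KDM6B, demethylases that remove the polycomb mark H3K27me3. The third experiment used 2102EP-C1 cells infected with the empty lentiviral vector pLKO.1 or with short hairpin RNAs against both demethylases (sh6A+6B), with or without the same cisplatin exposure. RNA was collected the day after cisplatin. These are bulk libraries from a single time point, so more cells that express a gene and more RNA per cell cannot be told apart. Each line is 1 selected resistant clone, so the values describe these clones, and sensitive parental cells were not analysed here.

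p53 is a transcription factor that is stabilised when DNA is damaged, and it binds sites near its target genes and raises their transcription. MDM2 is both such a target and the ubiquitin ligase that degrades p53, which closes a negative feedback loop, while CDKN1A encodes p21, an inhibitor of cyclin-dependent kinases that holds cells in G1. TGCTs usually retain wild-type p53 and respond to cisplatin, a drug that cross-links DNA, with a strong p53 response.

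The p53 binding sites next to the members are shown first, because p53 acts on its target genes through such sites. A match was found for some of the members and is printed for those. A full site is a pair of 10-base repeats, each with the core CNNG in the middle, and the capitals below mark the 2 cores. The sites were read from GRCh38, the build used for the counts, within 5000 bases of each RefSeq start on both strands, allowing no spacer and at most 2 mismatches in 20 bases with both cores intact.
MDM2, chr12:68808923-68808942, plus strand, intron 1, centre at -84 from the inner start: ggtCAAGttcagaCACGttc
CCNG1, chr5:163437926-163437945, plus strand, intron 1, centre at 341 from the start: gcaCAAGcccaggCTAGtcc
CDKN1A, chr6:36676449-36676468, plus strand, upstream of the MANE Select transcript, centre at -2255 from its start: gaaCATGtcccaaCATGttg
BTG2, chr1:203303642-203303661, plus strand, upstream, centre at -1867 from the start: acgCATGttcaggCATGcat
GDF15, chr19:18385308-18385327, plus strand, upstream, centre at -840 from the start: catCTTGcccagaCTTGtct
The CDKN1A distance is counted from the start at chr6 position 36678714, while the RefSeq gene span given below begins further upstream and overlaps the last bases of the site. The CCNG1 site had 1 mismatch and the others had 2. Such a match was found for 5 of the 8 members searched, against 9.07% of the 13404 genes searched in the same way (1216 genes). CCNG1 had a second match in intron 2. The closest match had 3 mismatches for PPM1D and for SESN1 and 4 for PLK3, which says only that these letters were not found in this window. TP53INP1 was not searched. On the same build (RefSeq), MDM2 spans chr12:68808172-68850686, PPM1D chr17:60600193-60666280, CCNG1 chr5:163437571-163457640, CDKN1A chr6:36676463-36687332, BTG2 chr1:203305519-203309602, PLK3 chr1:44800377-44805990, SESN1 chr6:108984309-109094846 and GDF15 chr19:18386158-18389176. A match is a description of the sequence and binding was not measured.

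The MDM2 site lies in the inner promoter, within the first intron of the longer transcript. The 250 bases before that start, chr12:68808767-68809016 on the plus strand (RefSeq, GRCh38.p14), are printed with the p53 site in capitals. The corresponding window of PLK3, chr1:44800127-44800376 on the plus strand, is printed beside it because it held a different motif.
MDM2: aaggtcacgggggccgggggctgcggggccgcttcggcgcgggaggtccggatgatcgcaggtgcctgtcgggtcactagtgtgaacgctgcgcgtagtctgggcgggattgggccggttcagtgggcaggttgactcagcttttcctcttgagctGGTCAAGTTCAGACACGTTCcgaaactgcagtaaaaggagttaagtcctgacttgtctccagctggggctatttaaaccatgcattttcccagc
PLK3: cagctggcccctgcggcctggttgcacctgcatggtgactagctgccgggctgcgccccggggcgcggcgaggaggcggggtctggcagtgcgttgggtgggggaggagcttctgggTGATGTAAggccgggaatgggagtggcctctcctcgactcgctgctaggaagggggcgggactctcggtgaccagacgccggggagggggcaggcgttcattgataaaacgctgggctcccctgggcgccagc
The capitals in PLK3 mark a CARE motif (TGATGNAA, searched on both strands), the element that ATF4 and CEBP proteins bind in amino acid stress genes. It was present in 1.95% of 19242 promoter windows and in no other member's window searched. Of the other motifs searched on both strands, PPM1D held a CRE (TGACGTCA, in 2.27% of windows), GDF15 held a TATA box (TATAAA, in 6.75% of windows) and SESN1 held a single p53 repeat before its inner start (5.03% of windows), while no member's window held an E-box (CACGTG, in 7.81% of windows).

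The genes differed widely in their level before treatment. On the scale of mean log2 CPM (counts per 1e6 reads at TMM-scaled library size) per kilobase of the representative transcript, untreated NT2/D1-A4 cells had 7.40 ± 0.02 (SD, n = 3) for MDM2 and 6.20 ± 0.04 for CCNG1. PPM1D followed at 3.90 ± 0.05, SESN1 at 2.99 ± 0.02, GDF15 at 2.56 ± 0.24, CDKN1A at 2.32 ± 0.10, TP53INP1 at 2.17 ± 0.02, BTG2 at 1.67 ± 0.07 and PLK3 at 1.18 ± 0.12. Among neighbours in this order only GDF15 and CDKN1A had overlapping libraries. Untreated 2102EP-C1 cells had CCNG1 (6.58 ± 0.02) above MDM2 (5.93 ± 0.05), and TP53INP1, BTG2 and PLK3, the lowest 3, lay between 1.92 and 1.69 with overlapping libraries. The feedback genes MDM2 and CCNG1 were therefore the most abundant members per length in each experiment, and the arrest genes BTG2 and PLK3 were among the least abundant. The lowest read number behind any value was 141, for PLK3, which gives a counting error of 8.42%, and MDM2 had at least 15236 reads.

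Library depth ran from 26.8 to 49.5 M reads (M, 1e6) in NT2/D1-A4, from 30.3 to 53.6 M in 2102EP-C1 with GSK-J4, and from 79.4 to 100.9 M in the knockdown experiment. The deeper knockdown libraries also had the smallest spread, with a median SD of 0.041 on the log2 scale over members and arms, against 0.068 and 0.06 in the GSK-J4 experiments. Smaller differences could pass the adjusted p there, so counts of calls are not comparable between experiments and the 3 tables were never tested against each other. Embryonal carcinoma identity was checked with 12 markers, of which 11 were in each table, and their summed level lay between 7905 and 12360 CPM in every library. TNFRSF8, one of the 11, was low, with a median log2 CPM of 0.37 in NT2/D1-A4, where the others had 7.54 or more. It lay below COL1A1 (2.57), CDH5 (1.89) and PECAM1 (1.03), markers of other cell types. In 2102EP-C1 with GSK-J4, TNFRSF8 (2.22) lay below COL1A1 (4.59) and CDH5 (3.40). Of 15 markers of other cell types, 5 or 6 were in a table, with a summed level of 10.7 to 46.1 CPM. This sum was higher with cisplatin than without it in each experiment, at 12.8 to 14.1 against 10.7 to 11.9 CPM in NT2/D1-A4, 41.7 to 43.5 against 32.9 to 36.2 CPM in 2102EP-C1 and 44.9 to 46.1 against 37.1 to 37.8 CPM in pLKO.1 cells. The endothelial gene CDH5 rose 1.35-fold with cisplatin in both 2102EP-C1 experiments, and AFP, a fetal liver and yolk sac gene, rose 2.67-fold and 3.36-fold with GSK-J4 in NT2/D1-A4 and 2102EP-C1, where no library exceeded a log2 CPM of -0.41. GFAP fell with GSK-J4 in NT2/D1-A4, and the part of these genes in the members' changes was not tested. A gene was called when its fold change exceeded 1.3 and its p in limma, after Benjamini-Hochberg adjustment over all genes of the table, was under 0.05, and "rose" and "fell" are used for called genes.

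The knockdown was checked on its targets. KDM6A had 143, 144 and 142 CPM in the pLKO.1 libraries and 70.7, 68.2 and 73.6 CPM in the sh6A+6B libraries, a log2 fold change of -1.01 (limma, adjusted p = 2.13e-18). KDM6B went from 24.4, 25.2 and 24.8 CPM to 11.4, 12.2 and 13.5 CPM, also -1.01 (adjusted p = 1.78e-14). About 50% of each transcript therefore remained, 49.5% of KDM6A and 49.6% of KDM6B. GSK-J4, which acts on the proteins, left KDM6A within 0.06 on the log2 scale in both lines, and KDM6B rose by 0.88 in NT2/D1-A4 and by 0.81 in 2102EP-C1.

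**Figure D1:**
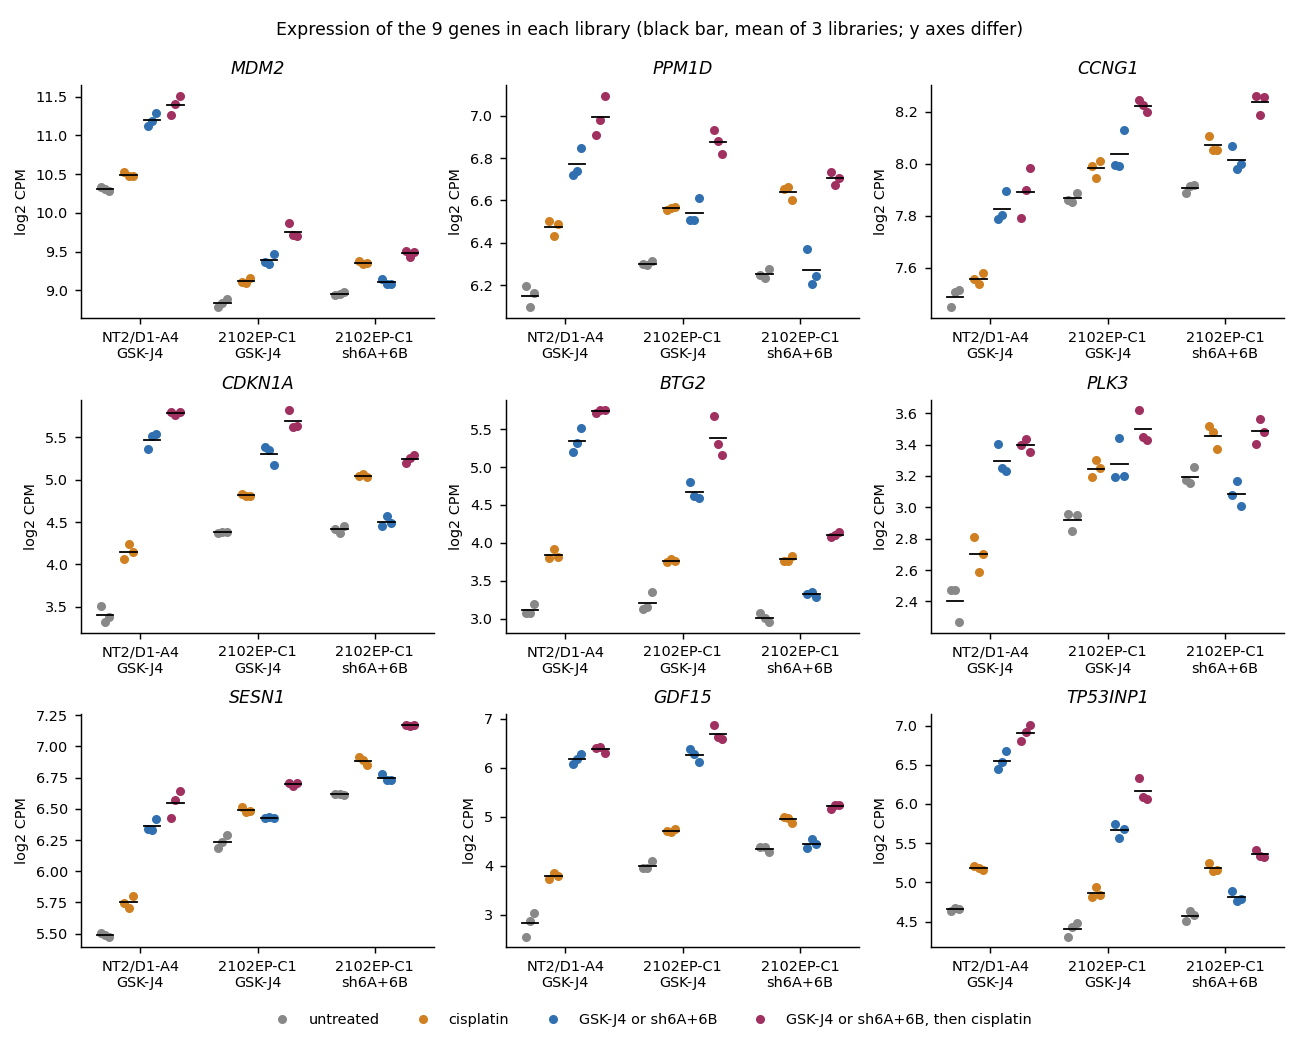
Log2 CPM (y axis, a separate range for each gene) of the 9 genes in every library, grouped on the x axis by experiment and coloured by arm, with a bar at the mean of 3 libraries. In NT2/D1-A4 the arms climb from untreated through cisplatin and GSK-J4 to both for all 9 genes, whereas in the sh6A+6B experiment the cisplatin arm has a higher mean than the hairpin arm.

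The calls with cisplatin alone were arrest and stress genes in both GSK-J4 experiments, and came from every group in pLKO.1 cells. In NT2/D1-A4 cells 4 of the 9 rose, CDKN1A, BTG2, GDF15 and TP53INP1, where 2.05% of all genes rose. The same 4 rose in 2102EP-C1 in the GSK-J4 experiment (0.881% of all genes), and these 4 with MDM2 and PPM1D rose in the pLKO.1 cells (2.53% of all genes). Nothing among the members fell. In all 3 experiments each of the 9 genes was higher in every cisplatin library than in every untreated one, which held for 17.1%, 14% and 23.9% of all genes.

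Among the arrest genes, CDKN1A had 11.4, 9.97 and 10.4 CPM in the untreated NT2/D1-A4 libraries and 16.8, 18.9 and 17.7 CPM after cisplatin, a 1.68-fold rise (log2 0.75 ± 0.06 SE, adjusted p = 4.1e-07). In untreated 2102EP-C1 it had 20.7, 20.8 and 20.8 CPM, and after cisplatin 28.5, 28.1 and 28.0 CPM, a 1.36-fold rise (adjusted p = 6.6e-06). In pLKO.1 cells it went from 21.4, 20.8 and 22.0 CPM to 33.0, 33.5 and 32.7 CPM, a 1.55-fold rise (adjusted p = 1.3e-12). The libraries of the 2 arms did not overlap in any of the 3 experiments. BTG2, an antiproliferative protein that recruits the CCR4-NOT deadenylase, rose 1.66-fold in NT2/D1-A4, 1.47-fold in 2102EP-C1 and 1.71-fold in pLKO.1 cells. PLK3, a polo-like kinase of the stress response, had log2 differences of 0.30, 0.33 and 0.26, under the fold limit, with adjusted p of 0.029, 0.015 and 0.00036 by limma.

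GDF15, a secreted cytokine of the TGF-beta family that marks cell stress, had the largest change with cisplatin in both GSK-J4 experiments. It rose 1.96-fold in NT2/D1-A4 (log2 0.97 ± 0.09), 1.64-fold in 2102EP-C1 (0.71 ± 0.06) and 1.52-fold in pLKO.1 cells (0.60 ± 0.04). By log2 fold change it ranked number 40 of 16431 genes in NT2/D1-A4 and number 73 of 17035 in 2102EP-C1. TP53INP1, a cofactor of p53 that also takes part in autophagy, rose 1.44-fold, 1.37-fold and 1.53-fold in the 3 experiments. SESN1, a sestrin that restrains mTORC1, had log2 differences of 0.26, 0.26 and 0.27, with adjusted p of 0.0026, 2.2e-05 and 5.5e-10, all short of the fold limit.

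With cisplatin alone the 3 feedback genes had the smallest group median in each experiment, although single genes of the groups overlapped. MDM2 had log2 differences of 0.19 in NT2/D1-A4 and 0.29 in 2102EP-C1, below the fold limit, and rose 1.32-fold in pLKO.1 cells (0.40 ± 0.02). PPM1D, which encodes the phosphatase WIP1 that dephosphorylates p53 and its activating kinases, had 0.32 and 0.26 in the GSK-J4 experiments and rose 1.31-fold in pLKO.1 cells. CCNG1, cyclin G1, which recruits the phosphatase PP2A to MDM2, had the smallest value in each experiment (0.07, 0.11 and 0.16). The median over the 3 feedback genes was 0.19, 0.26 and 0.39 in the 3 experiments, against 0.73, 0.44 and 0.63 over the 3 arrest genes and 0.53, 0.46 and 0.60 over the 3 stress genes. The pLKO.1 cells and the untransduced 2102EP-C1 cells are separate library sets, so these values stand side by side without a test.

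GSK-J4 alone gave larger log2 changes than cisplatin alone for 9 of 9 members in NT2/D1-A4 and 7 of 9 in 2102EP-C1. The 2 effects share their untreated libraries, and their difference is described without a test. In NT2/D1-A4 cells 8 of 9 rose, against 13.8% of all genes, and in 2102EP-C1 cells 5 of 9 rose, against 7.79%. No member fell in either line. Every GSK-J4 library lay above every untreated library for all 9 genes in both lines, which held for 30.4% and 23.8% of all genes. The median over the 9 was 0.90 in NT2/D1-A4 and 0.56 in 2102EP-C1 on the log2 scale, where the median of all genes tested was 0.01 and -0.0017.

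GDF15 had 5.87, 7.38 and 8.17 CPM in the untreated NT2/D1-A4 libraries, 13.2, 14.5 and 13.9 CPM with cisplatin, 67.6, 72.6 and 77.2 CPM with GSK-J4, and 84.8, 85.6 and 78.9 CPM with both. Neither the untreated nor the cisplatin libraries came near those given GSK-J4. The GSK-J4 effect was 10.2-fold (log2 3.35 ± 0.09, adjusted p = 4.6e-16) and ranked number 9 of 16431 genes. In 2102EP-C1 the gene had 15.5, 15.6 and 17.1 CPM untreated, 26.2, 25.9 and 26.9 CPM with cisplatin, 83.8, 77.6 and 69.1 CPM with GSK-J4, and 118, 98.2 and 96.6 CPM with both. There the GSK-J4 effect was 4.77-fold (2.25 ± 0.06) and ranked number 27 of 17035.

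Of the arrest genes, BTG2 in NT2/D1-A4 had 8.39, 8.44 and 9.18 CPM untreated, 13.9, 15.2 and 14.05 CPM with cisplatin, 36.6, 40.0 and 45.6 CPM with GSK-J4, and 52.5, 53.8 and 53.8 CPM with both. All 4 arms were separate. It rose 4.68-fold with GSK-J4 there (log2 2.23 ± 0.07, adjusted p = 5.1e-15) and 2.75-fold in 2102EP-C1 (1.46 ± 0.09). CDKN1A rose 4.2-fold in NT2/D1-A4, to 41.2, 45.7 and 46.7 CPM, and 1.91-fold in 2102EP-C1, to 42.0, 41.0 and 36.3 CPM. Its untreated level was lower in NT2/D1-A4, and the 2 lines were not tested against each other. PLK3 rose 1.86-fold in NT2/D1-A4 (0.89 ± 0.08), and in 2102EP-C1 its difference of 0.36 (1.28-fold, adjusted p = 0.00085) fell just short of the fold limit.

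TP53INP1 rose 3.72-fold with GSK-J4 in NT2/D1-A4, from 24.9, 25.4 and 25.3 CPM to 87.1, 92.4 and 102 CPM, and 2.39-fold in 2102EP-C1. SESN1 rose 1.82-fold in NT2/D1-A4 (0.87 ± 0.05), and in 2102EP-C1 its log2 difference was 0.19 (95% interval 0.12 to 0.26), which does not reach the fold limit. MDM2 rose in both, from 1286, 1264 and 1243 CPM to 2233, 2332 and 2512 CPM in NT2/D1-A4 (1.86-fold, 0.90 ± 0.05) and 1.47-fold in 2102EP-C1 (0.56 ± 0.04). PPM1D rose 1.54-fold in NT2/D1-A4, with 0.24 in 2102EP-C1. CCNG1 was the only member not called in NT2/D1-A4 (0.34, 1.26-fold, adjusted p = 3.6e-06), and it had 0.17 in 2102EP-C1. Scaled to library size without TMM, CCNG1 was called in NT2/D1-A4 at 0.38. Measured genes that overlap a member on the genome were CPM (carboxypeptidase M, at MDM2), NUDCD2 (at CCNG1), ARMC2 (at SESN1) and NDUFAF6 (at TP53INP1). With GSK-J4 in NT2/D1-A4 they had -0.09, -0.12, -0.22 and -0.13, and none of these 4 rose. The CPM gene had 0.33 with cisplatin in the knockdown experiment and rose there with both treatments (0.57), where MDM2 had 0.40 and 0.52. ARMC2 rose with cisplatin in knockdown cells (0.41), where SESN1 had 0.42, but had -0.31 with knockdown alone, where SESN1 had 0.13. NUDCD2 and NDUFAF6 were not called in that experiment. The part of these overlapping genes in the members' values was not tested.

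**Figure D2:**
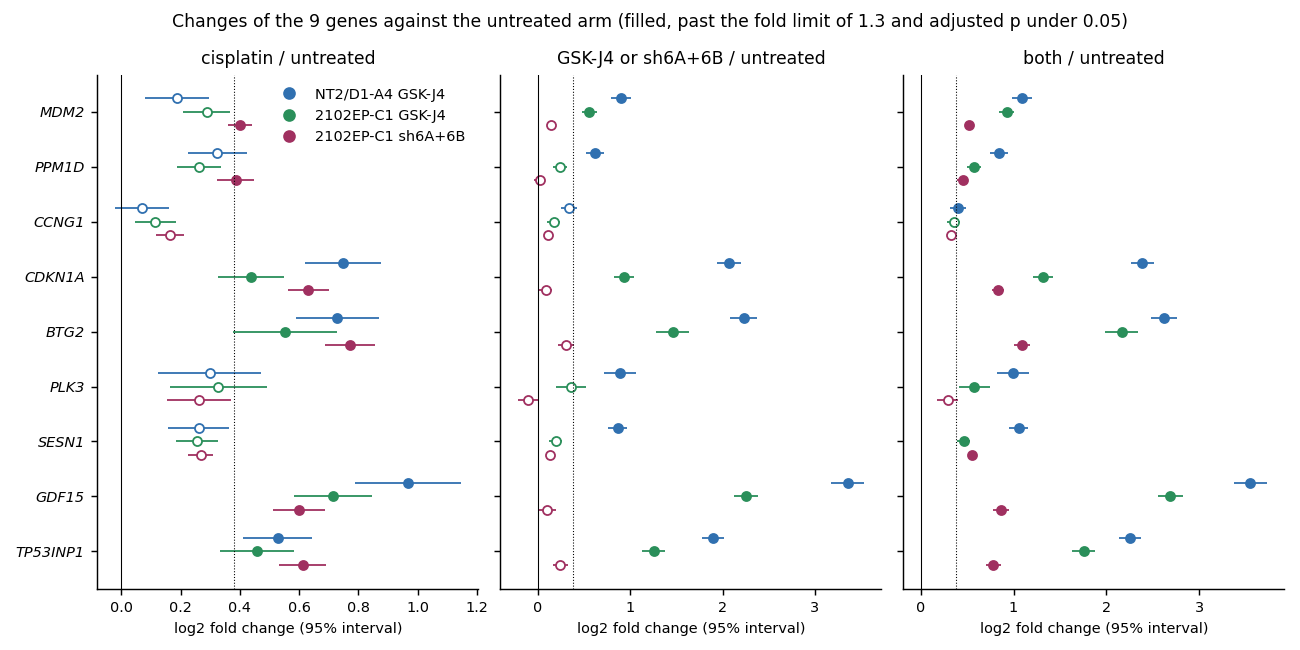
Log2 fold change against the untreated arm (x axis, 95% interval; the range differs between panels) for the 9 genes, with one colour per experiment, filled where called and a dotted line at a fold change of 1.3. With cisplatin alone all values lie between 0.07 and 0.97. With GSK-J4 alone or sh6A+6B alone, the value is highest in NT2/D1-A4 and lowest with sh6A+6B for every gene. Some intervals overlap, as for CCNG1 with GSK-J4 in 2102EP-C1 (0.10 to 0.24) and with sh6A+6B (0.06 to 0.16).

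sh6A+6B alone called 0 of the 9 genes by limma, where 6.34% of all genes rose and 5.74% fell. Without a fold limit 7 members lay above pLKO.1 with an adjusted p under 0.05, against 25.6% of all genes, 8 were past an unadjusted p of 0.05, and voom on the recovered reads also called 0 at the full thresholds. Most of the members were thus detectably above the pLKO.1 cells by a small step. BTG2 had the largest value, from 8.39, 8.07 and 7.75 CPM to 10.02, 10.2 and 9.73 CPM (log2 0.31 ± 0.04, adjusted p = 9.5e-07), and its libraries did not overlap. TP53INP1 had 0.24, MDM2 0.15, SESN1 0.13 and CCNG1 0.11, also without overlap. Such separation was seen for 5 members and 28.3% of all genes.

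GDF15 had 20.9, 20.9 and 19.4 CPM in the pLKO.1 libraries and 20.6, 23.5 and 21.7 CPM in the sh6A+6B libraries, which overlapped (log2 0.10, 95% interval 0.02 to 0.19). CDKN1A had 0.09 (0.02 to 0.16) and PPM1D 0.02 (-0.04 to 0.08). PLK3 was the only member with a lower mean in sh6A+6B cells (-0.11, -0.22 to -0.00, adjusted p = 0.081). The upper limits of all these intervals lie under the fold limit of 1.3. The same comparison with GSK-J4 in this line gave 2.25 for GDF15 and 0.93 for CDKN1A. The drug and the hairpins were in separate experiments, and the difference between them was not tested.

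With both treatments each member had its highest mean in each experiment, which was not counted over all genes. Some margins were small. In the knockdown experiment PLK3 was 0.03 above cisplatin alone (limma, adjusted p = 0.66), with overlapping libraries and a sign that depended on single libraries. PPM1D was 0.07 above it there (adjusted p = 0.057). Libraries with both overlapped those with GSK-J4 alone for MDM2, CCNG1 and PLK3 in NT2/D1-A4 and for PLK3 in 2102EP-C1. Against untreated cells all 9 rose in NT2/D1-A4 (15.9% of all genes rose), 8 rose in 2102EP-C1 with GSK-J4 (12.8%) and 7 rose in the knockdown experiment (8.51%). The rises in NT2/D1-A4 ran from 1.32-fold for CCNG1 through 2.13-fold for MDM2 and 5.24-fold for CDKN1A to 11.7-fold for GDF15. In 2102EP-C1 they ran up to 6.46-fold for GDF15 and 4.49-fold for BTG2, and CCNG1 (0.36) was not called. In the knockdown experiment BTG2 was highest (2.14-fold), followed by GDF15 (1.82-fold), CDKN1A (1.78-fold), TP53INP1 (1.72-fold), SESN1 (1.47-fold), MDM2 (1.44-fold) and PPM1D (1.37-fold), with CCNG1 and PLK3 under the limit.

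The order of the arm means was untreated, cisplatin, GSK-J4, both for 9 of 9 members in NT2/D1-A4, an order shown by 15.4% of all genes. For all 9 the GSK-J4 libraries lay wholly above the cisplatin libraries, which held for 28.6% of genes. In 2102EP-C1 the order was the same for 7 of 9 (15.8% of all genes). PPM1D and SESN1 had cisplatin above GSK-J4 there, and for SESN1 the libraries did not overlap (91.5, 89.1 and 89.3 CPM with cisplatin, 85.8, 86.3 and 86.1 CPM with GSK-J4). In the knockdown experiment 8 of 9 had the order pLKO.1, sh6A+6B, cisplatin, both, against 3.75% of all genes, and PLK3 was the exception.

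Cisplatin added to GSK-J4-treated cells raised 1 member in NT2/D1-A4 and 4 in 2102EP-C1. In NT2/D1-A4 BTG2 rose (1.32-fold, log2 0.40 ± 0.07, adjusted p = 0.0064), against 0.158% of all genes. This call rests on single libraries: without GSK-J4 replicate 1 or combination replicate 2 no member was called, and without GSK-J4 replicate 3 or combination replicate 1 there were 2. CDKN1A had 0.32 (adjusted p = 0.016) and TP53INP1 0.36 (adjusted p = 0.0029), under the fold limit, while GDF15 had 0.20 (adjusted p = 0.29). In 2102EP-C1, BTG2 (0.71), TP53INP1 (0.50), GDF15 (0.44) and CDKN1A (0.39) rose, against 0.916% of all genes. Without combination replicate 1, 2 members were called.

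In sh6A+6B cells cisplatin raised 7 of 9 members, against 2.48% of all genes. BTG2 had 0.79, GDF15 0.76, CDKN1A 0.75, TP53INP1 0.54, PPM1D 0.43, SESN1 0.42 and PLK3 0.40. MDM2 (0.38, adjusted p = 6.9e-13) lay at the fold limit, uncalled as reported and called when libraries were scaled to size only. Compared within cisplatin-treated cells, GSK-J4 raised 8 members in NT2/D1-A4 (12.8% of all genes rose) and 5 in 2102EP-C1 (10.5%). sh6A+6B within cisplatin-treated cells called 0 of 9 by limma (6.4% of all genes rose) and 0 by voom, with 8 members past an unadjusted p of 0.05, and its largest values were 0.32 for BTG2 and 0.28 for SESN1.

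Whether the 2 treatments added up was read from the interaction, the cisplatin effect in pretreated cells minus that in cells without pretreatment, on the log2 scale. GDF15 in NT2/D1-A4 had -0.77 (95% interval -1.02 to -0.52, adjusted p = 0.02), a call shared by 0.0426% of all genes. The separate log2 changes of GDF15 summed to 4.32 and the log2 change with both was 3.55, so the combined rise was below the sum on this scale. A sum of log2 changes is a product of fold changes, and whether the rises in CPM added up was not tested. This call was lost without any one of 5 libraries (cisplatin replicates 2 and 3, GSK-J4 replicates 2 and 3, and combination replicate 2). CDKN1A had -0.43 (-0.61 to -0.25, adjusted p = 0.12) and BTG2 -0.33 (-0.53 to -0.13, adjusted p = 0.42). For MDM2 the interval was -0.15 to 0.16.

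In 2102EP-C1 with GSK-J4 the interaction called 0 of 9 members by limma, 0 by voom and 1 at an unadjusted p of 0.05, where 0.857% of all genes were called. That member was GDF15 (-0.28, -0.46 to -0.09, adjusted p = 0.097). In the knockdown experiment it also called 0 by limma and by voom (3.77% of all genes), with 3 members past an unadjusted p of 0.05. SESN1 (0.16, 95% interval 0.10 to 0.21, adjusted p = 0.00012) and GDF15 (0.16, 0.03 to 0.28, adjusted p = 0.044) passed the adjusted p without the fold limit, as 17.2% of all genes did upward. ARMC2, which overlaps SESN1 on the genome, did so as well (0.36, limma, adjusted p = 0.0012), and its part in the SESN1 value was not tested. For SESN1 the cisplatin effect was 0.27 in pLKO.1 cells and 0.42 in sh6A+6B cells, with 98.2, 98.4 and 98.0 CPM in pLKO.1, 121, 119 and 115 CPM with cisplatin, 109.5, 106 and 106 CPM in sh6A+6B and 144, 143 and 144 CPM with both.

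**Figure D3:**
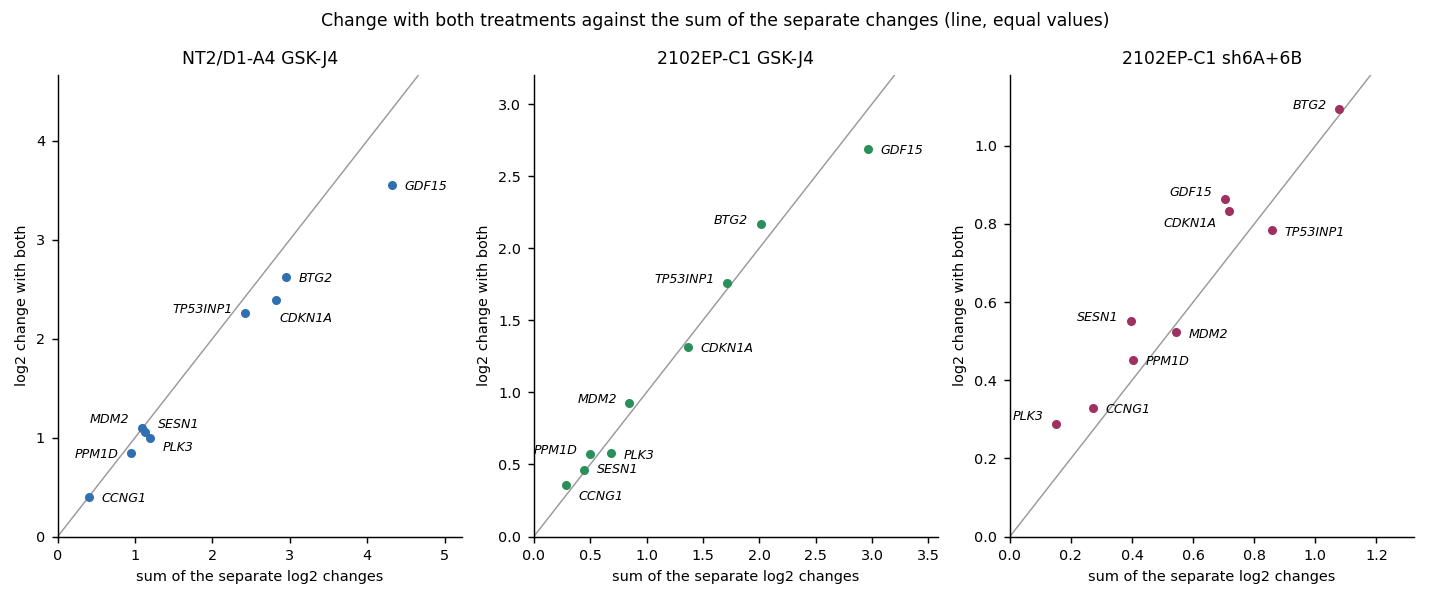
Log2 change with both treatments against untreated cells (y axis) plotted against the sum of the 2 separate log2 changes (x axis) for the 9 genes in each experiment, with a line at equal values. GDF15 lies under the line in NT2/D1-A4 (3.55 against 4.32), and SESN1 lies above it in the sh6A+6B experiment (0.55 against 0.40).

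Other genes of the p53 pathway gave a context. A list of 30 further p53 targets (29 in the NT2/D1-A4 table) had 7, 9 and 8 genes that rose with cisplatin alone in the 3 experiments, where 2.05%, 0.881% and 2.53% of all genes rose. With GSK-J4 alone 21 rose in NT2/D1-A4 (median log2 0.86, against 13.8% of all genes) and 14 in 2102EP-C1 (median 0.36, against 7.79%). With sh6A+6B alone 4 rose (median 0.04, against 6.34% of all genes), a count too small to read as a result about the list. FDXR, a mitochondrial reductase, had the largest cisplatin response of the list in every experiment (0.73, 0.68 and 0.70). With GSK-J4 the leading genes were SESN2 (1.84), FAS (1.68), KITLG (1.61) and FDXR (1.44) in NT2/D1-A4 and FAS (1.2), SPATA18 (1.19), KITLG (1.18) and GADD45A (0.90) in 2102EP-C1. The 4 that rose with sh6A+6B were KITLG (0.73), TRIM22 (0.71), TNFRSF10B (0.40) and FAS (0.39), and the last 2 encode death receptors.

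Of 14 regulators of p53, the kinases, acetyltransferases and ligases that act on it, few were called. CHEK2 (-0.40) and PPP1R13L (-0.49) fell with GSK-J4 in NT2/D1-A4, where 6.48% of all genes fell, and HIPK2 rose (0.41) in 2102EP-C1, where 7.79% rose. With cisplatin alone the regulators stayed between -0.32 and 0.23 in all 3 experiments, inside the fold limit. MDM4, the relative of MDM2 that blocks p53 without degrading it, had 0.36 with GSK-J4 in NT2/D1-A4 and 0.10 in 2102EP-C1.

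Genes related in sequence to the members did not all share their pattern. With GSK-J4, SESN2 (1.84 and 0.81) and PLK2 (1.40 and 0.60) rose in both lines, while SESN1 and PLK3 rose in NT2/D1-A4 and missed the fold limit in 2102EP-C1 (0.19 and 0.36). Among 15 such relatives, CDKN1C (0.58) and CCNG2 (0.45) also rose in NT2/D1-A4, where PLK1 and PLK4 fell, and SESN3 (0.51) rose in 2102EP-C1. Of all genes, 13.8% rose and 6.48% fell with GSK-J4 in NT2/D1-A4, and 7.79% rose in 2102EP-C1. PLK2 rose with cisplatin in each experiment (0.58, 0.42 and 0.53), where 2.05%, 0.881% and 2.53% of all genes rose. With sh6A+6B only CCNG2 rose (0.62), where 6.34% of all genes rose. The relatives are named singly and these calls are no result about the list.

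Cell-cycle genes that p21 represses had negative medians with GSK-J4 alone and with sh6A+6B alone, with few calls. Cell-cycle arrest itself was not measured. Among 20 cell-cycle genes that p21 represses, 5 fell with GSK-J4 in NT2/D1-A4 (median -0.27), where 6.48% of all genes fell, led by MKI67 (-0.89), CENPF (-0.73), AURKB (-0.60) and AURKA (-0.48). In 2102EP-C1 E2F2 fell (-0.53, median of the list -0.22), where 3.12% of all genes fell, and with sh6A+6B E2F2 and MYBL2 fell (both -0.45, median -0.18), where 5.74% of all genes fell. The counts of 1 and 2 of 20 lie near those shares and are no result about the list. With cisplatin alone the list stayed between -0.10 and 0.16, between -0.13 and 0.10, and between -0.32 and 0.25 in the 3 experiments. Of 14 cyclins, CDKs and CDK inhibitors measured, CCND1 rose with cisplatin in NT2/D1-A4 (0.51), where 2.05% of all genes rose. With GSK-J4 there, CCND2 (1.46) and CDKN1C (0.58) rose and CCNE1 (-0.49) and CCNB1 (-0.48) fell. Of all genes, 13.8% rose and 6.48% fell in that comparison. In 2102EP-C1 CCNB1 fell (-0.38), where 3.12% of all genes fell. With sh6A+6B CCNE2 rose (0.40) and CCND2 fell (-0.41), where 6.34% of all genes rose and 5.74% fell. These calls are no result about the list.

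A second stress pathway moved with the members under GSK-J4. The integrated stress response is the program through which ATF4 raises amino acid and stress genes, and GDF15, SESN2, TNFRSF10B and DDIT4 can respond to it as well as to other signals. Of 12 of its genes, 11 rose with GSK-J4 alone in each line, with a median of 1.81 in NT2/D1-A4 and 0.99 in 2102EP-C1, where 13.8% and 7.79% of all genes rose. The leading genes were CHAC1 (2.96), TRIB3 (2.87), DDIT4 (2.74) and VLDLR (2.14) in NT2/D1-A4 and TRIB3 (3.00), DDIT3 (2.31), ATF3 (1.70) and CEBPB (1.41) in 2102EP-C1. ATF4, named after its values were seen, was the gene not called in either line. With sh6A+6B alone CHAC1 (0.40) and DDIT4 (0.38) rose (median 0.14), where 6.34% of all genes rose. With cisplatin alone no value of the list exceeded 0.29, and CHAC1 fell in NT2/D1-A4 (-0.56) and, with ASNS (-0.64), in pLKO.1 cells (-0.51). The members were thus higher with cisplatin where the stress list was not, and higher with GSK-J4 where the list was higher too. The part of this pathway in the GSK-J4 changes of the members was not tested. The summed embryonal carcinoma markers were lower in every treated arm than in the untreated arm of the same experiment, with no overlap. They had 8664 to 8906 CPM with GSK-J4 against 10030 to 10250 CPM untreated in NT2/D1-A4, 10630 to 10910 against 11950 to 12360 CPM in 2102EP-C1, and 10710 to 10860 CPM with sh6A+6B against 11370 to 11420 CPM. DNMT3B fell with GSK-J4 in both lines (-0.79 and -0.43) and TNFRSF8 rose with sh6A+6B (0.40). The part of these markers was not tested.

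**Figure D4:**
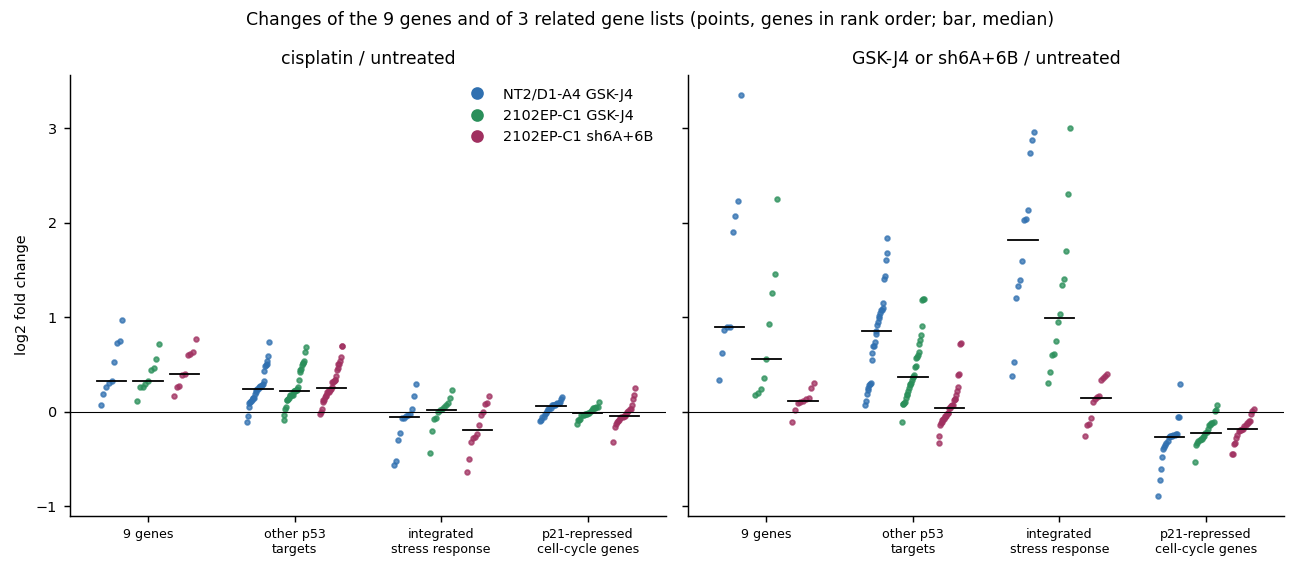
Log2 fold changes (y axis) of the 9 genes and of 3 related lists (x axis), with cisplatin alone on the left and GSK-J4 or sh6A+6B alone on the right, one point per gene and a bar at the median. The integrated stress response list has medians of 1.81 and 0.99 with GSK-J4 and of -0.05, 0.02 and -0.19 with cisplatin.

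Across the 36 libraries, each centred on the mean of its experiment, the members followed one another closely. Pearson r between 2 members ran from 0.841 (CCNG1 and PLK3) to 0.994 (BTG2 and TP53INP1). These are descriptions, since the libraries share arms and the drug effects set most of the spread. Among the 15050 genes in all 3 tables, the profiles outside the members most like their mean were INKA2 (0.988), NECTIN4 (0.986), EDA2R (0.981), PLK2 (0.979) and TSPAN11 (0.979). MDM2 and GDF15 were each most like TP53INP1 (0.988 and 0.986), CDKN1A was most like INKA2 (0.988), PLK3 most like PLK2 (0.957), PPM1D most like CMBL (0.976), CCNG1 most like TIGAR (0.971) and SESN1 most like RNF144B (0.969).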

How the data were processed

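Poly(A) RNA was sequenced from stranded mRNA libraries. Per the study's methods and notes, trimming with Trimmomatic, alignment to GRCh38.p14 with STAR and counting with featureCounts were followed by a filter on low genes, TMM and limma. Tool versions and the strand setting of the count are not given in the sources used here. The deposited tables hold log2 CPM, which the authors computed at TMM-scaled library sizes with a prior count of 3, tested here on values under 50 reads, 100% of which came back within 0.05 of a whole read.

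Each table was fitted on its 12 libraries with limma 3.58.1 (R 4.3.3, trend, a mean per arm, no block, two-sided), with adjustment over all genes. Genes whose fold change exceeded 1.3 at an adjusted p under 0.05 were called, and 6 comparisons were made per experiment. The series text calls the samples biological triplicates. The variance between replicate libraries of an arm was 1.67 to 25.3 times the counting variance (chi-square per degree of freedom), so none was counted as a duplicate. The largest ratio belonged to NT2/D1-A4 combination replicates 1 and 3. The members and lists were chosen with earlier results of these data known. All 9 members are named in every comparison. Of every other list, at most 4 genes per experiment with the largest called change with cisplatin or pretreatment alone are named, with the genes of highest Pearson r. The alternatives were a mean log2 value over 1, only the samples compared, the replicate block, leaving out each library, voom on recovered reads, library size scaling, a prior count of 0.5 and no fold limit. The fit was tested on simulated data. Python 3.11.15 with pandas 2.3.3, numpy 2.4.6 and matplotlib 3.10.9 prepared tables and plots. CDKN2C and TDGF1 were not analysed here, nor SPATA18 in NT2/D1-A4.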

Additional observations from a re-analysis of the deposited data

Results flagged for a closer look

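The difference between the cisplatin effect in GSK-J4-treated and in control NT2/D1-A4 cells passed its test for GDF15 (-0.769 on the log2 scale, limma, adjusted p = 0.02), with a cisplatin effect of 0.97 in control cells and 0.20 in GSK-J4-treated cells. In the knockdown experiment the corresponding difference passed the adjusted p but not the fold limit for SESN1 (0.155, adjusted p = 0.00012) and for GDF15 (0.159, adjusted p = 0.044), where the cisplatin effect was the larger one in sh6A+6B cells. ARMC2, which overlaps SESN1 on the genome, had 0.357 in the same comparison (limma, adjusted p = 0.0012), and its part in the SESN1 value was not tested. The NT2/D1-A4 call for GDF15 was lost without any one of 5 libraries. Its difference had the opposite sign in the knockdown experiment, where both the line and the treatment were others. In 2102EP-C1 with GSK-J4 the GDF15 difference was -0.28 and was not called. The differences were not tested against each other.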

How the results depend on the processing

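Of 1107 member values under settings that left out no library, 1055 kept their direction and call, 51 were newly called and 1 reversed. Direction could change only with voom, library size scaling or the other prior count. The remaining settings left the differences between arm means as they were, so direction was not tested there. Most newly called values came from dropping the fold limit. Library size scaling newly called CCNG1 with GSK-J4 in NT2/D1-A4 and MDM2 with cisplatin in sh6A+6B cells. The reversal was the NT2/D1-A4 interaction of MDM2 (0.0051 as reported, -0.0132 with library size scaling). Without a fold limit the members called numbered 8 with cisplatin (5.85% of all genes rose) and 4 with cisplatin after GSK-J4 (0.712%) in NT2/D1-A4. In 2102EP-C1 with GSK-J4 they numbered 8 with cisplatin (3.06%), 9 with GSK-J4 (19.2%), 8 with cisplatin after GSK-J4 (7.64%) and 9 with GSK-J4 within cisplatin (25.5%). In the knockdown experiment they numbered 7 with sh6A+6B (25.6%), 7 with sh6A+6B within cisplatin (30.9%) and 2 for the interaction (17.2%).

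Leaving out each library in turn, the members called ranged from 0 to 2 for cisplatin after GSK-J4 in NT2/D1-A4, from 0 to 1 for its interaction and from 2 to 5 for cisplatin after GSK-J4 in 2102EP-C1. Values near 0 changed sign. These were the NT2/D1-A4 interactions of MDM2 (-0.0540 to 0.0694) and CCNG1 (-0.0495 to 0.0459), and the 2102EP-C1 interactions with GSK-J4 of SESN1 (-0.0108 to 0.0408) and TP53INP1 (-0.0416 to 0.0930). In the knockdown experiment they were PPM1D with sh6A+6B alone (-0.0288 to 0.0525), PLK3 with sh6A+6B within cisplatin (-0.0147 to 0.0675), and the interactions of MDM2 (-0.0361 to 0.0017) and BTG2 (-0.0125 to 0.0444).

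The labels give replicate numbers in every arm. The deviations of same-numbered libraries from their arm means had correlations from -0.0923 to 0.0767, from -0.0579 to 0.0397 and from -0.0433 to 0.117 in the 3 experiments (18 pairs each). The pairs of sh6A+6B libraries without and with cisplatin had 0.117, 0.103 and 0.0461. Libraries with different numbers were not compared for reference, so these values cannot decide whether the numbers pair the samples. With the replicate block none of the 162 member results changed its call (0), and the members called with cisplatin remained 4, 4 and 6 in number. With cisplatin in the GSK-J4 experiments PLK3 passed the adjusted p (limma, 0.0292 and 0.0153), so the fold limit left it uncalled there.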

Other observations

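Among the regulators of p53, 2 had a different response to cisplatin in sh6A+6B than in pLKO.1 cells, which was noticed after their values were seen. The acetyltransferase gene EP300 and the kinase gene HIPK2 fell with sh6A+6B within cisplatin-treated cells (-0.58 and -0.54 on the log2 scale, limma, adjusted p = 5.55e-17 and 7.29e-15), against -0.15 and -0.02 with sh6A+6B alone. Adding cisplatin to sh6A+6B cells gave -0.35 for EP300 and -0.36 for HIPK2, under the fold limit and not called, and adding it to pLKO.1 cells gave 0.08 and 0.15. The interaction was called for both (EP300 -0.44, adjusted p = 5.39e-11, and HIPK2 -0.52, adjusted p = 7.58e-11 by limma). In this experiment it was called for 3.77% of all genes, 2.67% downward. Without a fold limit 18% of all genes passed the adjusted p downward, so such interactions were not particular to these regulators. In 2102EP-C1 with GSK-J4, HIPK2 rose by 0.41 with the drug alone.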
